A study of Mus musculus with 8 samples.

Results

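The genes described here are 34 genes of DNA replication and cell division, measured in Ly6G+ neutrophils from mouse bone marrow. They comprise 12 genes of S phase and DNA synthesis (Mcm2, Mcm3, Mcm4, Mcm5, Mcm6, Mcm7, Cdc6, Pcna, Rrm1, Rrm2, Tyms and Tk1) and 22 genes of G2 and mitosis (Mki67, Top2a, Ccna2, Ccnb1, Ccnb2, Cdk1, Plk1, Aurka, Aurkb, Tpx2, Birc5, Cdca8, Bub1, Bub1b, Cdc20, Ube2c, Kif11, Kif20a, Kif23, Cenpe, Hmmr and Nusap1). They were chosen by gene name for their role in the cell cycle, with earlier results of these data known. Every non-control probe annotated with a RefSeq transcript of one of them was used, 45 probes in all. Of these genes, 33 were among the 21251 genes tested, and Aurkb was not. That total, over which shares of all genes in expression are given, also counts probe targets without a RefSeq gene symbol. The series holds 8 single-colour Agilent arrays, 4 from wild-type (WT) animals and 4 from knockouts of the stress-induced transcription factor ATF3 (ATF3 KO), all on the C57BL/6 strain background. Cells were flushed from tibias and femurs and the Ly6G+ fraction was taken with magnetic beads. The series title places the comparison of genotypes in the study of neutrophil migration. The labels give no age, no allele of the knockout and no statement that the samples came from separate animals, so the p-values below measure only the spread between these samples.

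The labels conflict on how the cells were handled. The design text has RNA taken directly after sorting, and the description of WT replicate 1 calls that sample unmanipulated. The descriptions of the other 7 samples, of both genotypes, instead mention a 1 week culture in methylcellulose with 4-OHT. This conflict could not be resolved from the labels, and it sets WT 1 apart from the rest by its description. A single slide carried the 8 arrays, WT along one row and ATF3 KO along the other, and effects of the row and of the genotype cannot be told apart. Probes above background made up 55.3%, 51.8%, 50.5% and 46.4% on WT 1 to WT 4 and 50.2%, 53.2%, 46.9% and 46.0% on KO 1 to KO 4. WT 1 was thus the highest of the 8 arrays, and WT 4 the lowest WT array. The 8 arrays spanned 46.0% to 55.3% and 113 to 216 units in the 75th percentile of the processed signal. The neutrophil genes S100a8, S100a9 and Itgam were above background on all 8 arrays, which markers of other marrow cells also were, and Ly6g could not be matched to a named probe, so the labelled purity was not checked by these markers. The Atf3 probe, in log2 units, read 0.73 ± 0.074 (SD) in the WT arrays and 1.24 ± 0.27 in the ATF3 KO arrays, 4 of each (limma adjusted p = 0.121). Where this probe lies relative to the deleted part of the gene is not given in the sources used here, so it checks nothing about the labels.

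Neutrophils are made from dividing precursors in the marrow. Promyelocytes and myelocytes still pass through the cell cycle, whereas the metamyelocyte, band and segmented stages have left it and keep little of the machinery for copying or segregating chromosomes. Ahead of S phase, in late G1, E2F factors released from the retinoblastoma proteins switch on genes for origin licensing, replication forks and nucleotide supply. Later, in G2 and mitosis, complexes containing B-MYB or FOXM1 switch on genes for cyclin B-dependent kinase, the spindle and chromosome separation, often through a CHR element and CCAAT boxes. In a bulk sample, a lower share of dividing cells and less of a transcript in each dividing cell cannot be told apart.

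The promoters of the members carried letters of these elements, and 6 are shown, 3 for each class of gene, to let the letters be seen in place. RefSeq promoter windows of 300 bases on GRCm38.p6 (250 before to 50 after the transcription start) were found for 29 of the 34 members, and Mcm4, Aurkb, Ccna2, Kif20a and Tpx2 had none. Only the 250 bases before the start are printed, 5′ to 3′ on the strand of the gene. For the S phase genes Mcm5 (chr8:75109259-75109508, plus strand), Mcm6 (chr1:128359706-128359955, minus strand) and Mcm7 (chr5:138171884-138172133, minus strand), capitals mark the E2F sequences TTTCGCGC, TTTGGCGC or TTTCCCGC on either strand. For the mitosis genes Mki67 (chr7:135716380-135716629, minus strand), Top2a (chr11:99024190-99024439, minus strand) and Cdk1 (chr10:69352913-69353162, minus strand), capitals mark the CHR element TTTGAA and the CCAAT box, again on either strand.
Mcm5: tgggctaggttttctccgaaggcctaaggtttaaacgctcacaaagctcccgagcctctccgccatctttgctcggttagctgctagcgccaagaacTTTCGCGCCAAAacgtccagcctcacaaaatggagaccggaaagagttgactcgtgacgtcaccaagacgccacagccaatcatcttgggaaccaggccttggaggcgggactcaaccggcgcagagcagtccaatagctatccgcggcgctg
Mcm6: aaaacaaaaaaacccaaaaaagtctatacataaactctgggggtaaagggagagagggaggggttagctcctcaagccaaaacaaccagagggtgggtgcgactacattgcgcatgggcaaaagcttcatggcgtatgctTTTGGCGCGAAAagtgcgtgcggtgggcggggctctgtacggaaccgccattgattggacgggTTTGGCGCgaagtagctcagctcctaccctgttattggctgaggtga
Mcm7: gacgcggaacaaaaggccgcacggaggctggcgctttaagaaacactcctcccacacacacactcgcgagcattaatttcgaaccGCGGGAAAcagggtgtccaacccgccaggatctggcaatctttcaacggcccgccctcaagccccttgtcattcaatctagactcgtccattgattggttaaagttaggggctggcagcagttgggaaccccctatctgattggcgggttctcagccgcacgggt
Mki67: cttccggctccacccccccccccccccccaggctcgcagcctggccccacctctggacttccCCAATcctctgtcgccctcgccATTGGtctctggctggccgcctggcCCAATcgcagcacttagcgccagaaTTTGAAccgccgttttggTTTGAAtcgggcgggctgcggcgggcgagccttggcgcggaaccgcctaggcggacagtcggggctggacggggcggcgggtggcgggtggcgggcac
Top2a: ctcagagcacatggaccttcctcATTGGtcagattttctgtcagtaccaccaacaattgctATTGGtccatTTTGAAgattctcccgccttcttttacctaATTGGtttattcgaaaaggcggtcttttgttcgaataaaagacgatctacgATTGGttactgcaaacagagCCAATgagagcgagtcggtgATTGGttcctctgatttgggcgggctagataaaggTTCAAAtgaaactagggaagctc
Cdk1: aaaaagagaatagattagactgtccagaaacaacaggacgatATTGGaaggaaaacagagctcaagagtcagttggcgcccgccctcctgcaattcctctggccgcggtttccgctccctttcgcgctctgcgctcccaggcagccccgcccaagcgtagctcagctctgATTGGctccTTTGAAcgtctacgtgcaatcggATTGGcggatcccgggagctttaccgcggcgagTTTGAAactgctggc

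In Mcm5 and Mcm6, 2 E2F matches on opposite strands overlapped each other, from position -153 to -142 and from -110 to -99 relative to the start. Mcm6 held another at -47 to -40, and Mcm7 held one at -165 to -158 and another after the start, at 17 to 24. Mki67 held CHR letters at -116 to -111 and -98 to -93 and Top2a at -179 to -174 and -23 to -18. Cdk1 held CHR letters at -71 to -66 and -15 to -10, and it was the single mitosis gene with an E2F match as well, at -131 to -124.

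Over all members with a window, E2F letters occurred in 5 of 11 S phase genes (45.5%, Mcm3, Mcm5, Mcm6, Mcm7 and Cdc6) and in 1 of 18 mitosis genes (5.56%), against 2.12% of 27025 genes with a window of the same length. CHR letters showed the opposite division, with 13 of 18 mitosis genes (72.2%) and 1 of 11 S phase genes (9.09%, Mcm2) against 20.2% of all genes. A CCAAT box was present in 16 of 18 mitosis genes (88.9%) and 8 of 11 S phase genes (72.7%), against 41.1% of all. All 13 mitosis genes with CHR letters also held a CCAAT box, a combination found in 8.97% of all genes. A gene with several windows was counted when any of them held a match. CCAAT matches on opposite strands could overlap each other, and a match is a description of letters, not of a bound site.

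**Figure D1:**
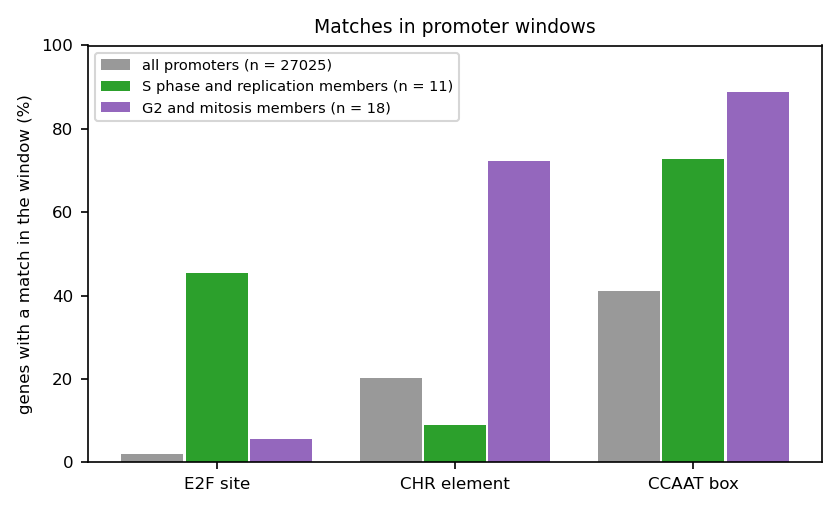
Share of genes (percent, vertical axis, from 0) with an exact match on either strand in a 300-base promoter window, for 3 elements and 3 sets: all 27025 genes (grey), 11 S phase members (green) and 18 mitosis members (purple). E2F letters were found in 45.5% of S phase members and CHR letters in 72.2% of mitosis members, against 2.12% and 20.2% of all genes.

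Nearly all of the members were detected in this Ly6G+ fraction. Of the 45 probes, 41 were well above background on all 8 arrays, 1 probe of Tpx2 on 1 array, and 3 on none: the only probe of Aurkb, which encodes the mitotic kinase Aurora B, and 2 of the 3 probes of Cdk1. Processed signals of the probes used ran from 29.6 to 12800 units, with no saturated spot. The 33 genes that passed the filter (a signal well above background on 4 or more arrays) were above background on all 8, in both genotypes. Levels below are log2 processed signals minus the 75th percentile of the array, called log2 units. They are compared between arrays for 1 gene, not between genes, except in the summed levels of marker lists. Such sums also depend on how strongly each probe responds.

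Most members were highest on WT 1 and lowest on WT 4, with the 4 ATF3 KO arrays between them. WT 1 was the highest WT array for all 33 members tested, against 22% of all genes, and the highest of all 8 arrays for 27 (81.8%, against 15.6% of all genes). WT 4 was the lowest WT array for 27 members (81.8%, against 25.8%) and the lowest of the 8 for 23 (69.7%, against 8.74%). The highest value lay on KO 2 for Tyms, Kif11, Cenpe and Hmmr and on KO 1 for Aurka and Plk1. From WT 1 to WT 4 the median member differed by 0.71 log2 units, 1.64-fold, while the median of all genes differed by -0.021.

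**Figure D2:**
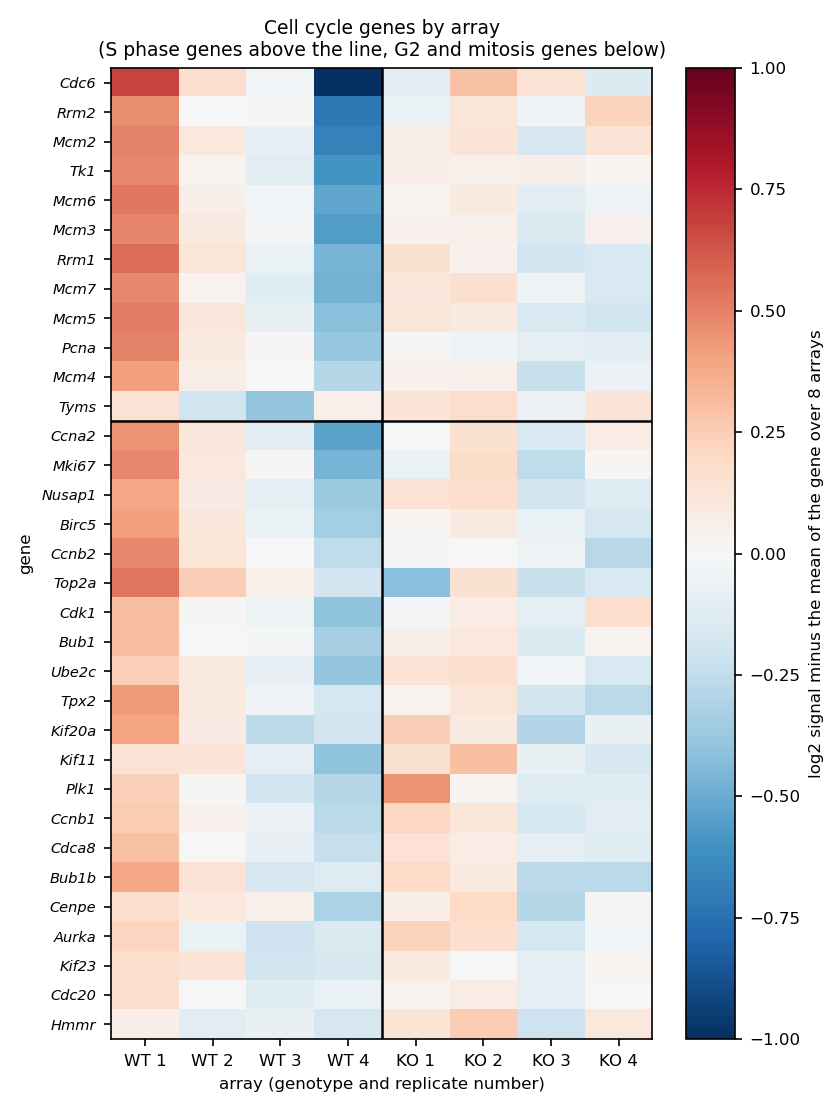
Log2 signal of 33 members on each array minus the mean of that gene over the 8 arrays (colour, log2 units, limited to -1 to 1), S phase genes above the horizontal line and mitosis genes below it, each sorted by the difference between WT 1 and WT 4. The WT 1 column is the highest of the 8 for 27 of 33 genes and the WT 4 column the lowest for 23.

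The subunits of the MCM helicase, which is loaded on replication origins and unwinds DNA ahead of the fork, showed this order clearly. Mcm2 read 2.17, 1.78, 1.59 and 1.00 on WT 1 to WT 4 and 1.73, 1.80, 1.52 and 1.81 on KO 1 to KO 4. WT 1 exceeded WT 4 by 2.24-fold, whereas the 4 ATF3 KO arrays lay within 1.23-fold of each other, inside the range of WT. Mcm4 read 4.18, 3.84, 3.77 and 3.48 on WT 1 to WT 4 and 3.81, 3.82, 3.55 and 3.71 on KO 1 to KO 4, and Mcm5, whose promoter held the overlapping E2F letters, read 3.32, 2.93, 2.74 and 2.40 on WT 1 to WT 4 and 2.94, 2.91, 2.66 and 2.62 on KO 1 to KO 4. In both, the highest of the 8 values was on WT 1 and the lowest on WT 4, and the genotypes overlapped. Mcm3, Mcm6 and Mcm7 differed between WT 1 and WT 4 by 2.06-fold, 2.06-fold and 1.93-fold, with ATF3 KO ranges of 1.14-fold, 1.16-fold and 1.24-fold. Cdc6, which helps to load the helicase, had the largest WT difference of the 33 members, 3.20-fold, and an ATF3 KO range of 1.35-fold.

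At the fork and in nucleotide supply the picture was similar with 1 exception. Pcna, the sliding clamp that holds polymerases on DNA, read 5.21, 4.81, 4.72 and 4.33 on WT 1 to WT 4 and 4.72, 4.68, 4.61 and 4.6 on KO 1 to KO 4. Its WT arrays spanned 1.84-fold and its ATF3 KO arrays 1.09-fold. Rrm2, the small subunit of ribonucleotide reductase, read 5.52, 5.05, 5.07 and 4.34 on WT 1 to WT 4 and 4.99, 5.17, 5.03 and 5.28 on KO 1 to KO 4. WT 1 was again highest and WT 4 lowest, 2.26-fold apart, and Rrm1, which encodes the large subunit, differed 2.03-fold between them. Tk1, a thymidine kinase that salvages thymidine, read 3.0, 2.55, 2.41 and 1.93 on WT 1 to WT 4 and 2.58, 2.57, 2.58 and 2.54 on KO 1 to KO 4. Its ATF3 KO arrays were within 1.03-fold of each other while the WT arrays spanned 2.11-fold. Tyms, thymidylate synthase, read -1.91, -2.26, -2.44 and -2.00 on WT 1 to WT 4 and -1.92, -1.88, -2.11 and -1.93 on KO 1 to KO 4. This gene did not follow the order of the others: the lowest value was on WT 3, WT 1 and WT 4 differed 1.07-fold, and the genotypes overlapped. Its only probe was the dimmest of the member probes used, at 29.6 to 57.3 units, which limits the reading of this exception.

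Among the G2 and mitosis genes WT 1 was again the highest WT array for each gene, and most differences were smaller. Mki67, which encodes the proliferation marker Ki-67, read 5.89, 5.52, 5.42 and 4.95 on WT 1 to WT 4 and 5.34, 5.6, 5.16 and 5.42 on KO 1 to KO 4. WT 1 exceeded WT 4 by 1.93-fold and all ATF3 KO values lay between them. A second probe of Mki67 differed by 0.98 log2 units between the same arrays, beside 0.94 for the probe used. Top2a, the topoisomerase that untangles sister chromosomes, read 2.44, 2.15, 1.96 and 1.71 on WT 1 to WT 4 and 1.48, 2.06, 1.68 and 1.75 on KO 1 to KO 4. Here the lowest array was KO 1 rather than WT 4, and WT 1 and WT 2 exceeded the other 6 arrays, although KO 2 lay close to WT 2.

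The kinase that drives entry into mitosis and its cyclins differed less between WT 1 and WT 4 than the median S phase gene. Cdk1, the kinase, read 1.34, 1.04, 0.98 and 0.63 on WT 1 to WT 4 and 1.02, 1.1, 0.94 and 1.21 on KO 1 to KO 4, a 1.64-fold difference from WT 1 to WT 4. Its partner Ccnb1 read 3.05, 2.83, 2.73 and 2.52 on WT 1 to WT 4 and 3.0, 2.92, 2.62 and 2.68 on KO 1 to KO 4. KO 1 was close to WT 1 for Ccnb1, and the genotypes overlapped for both genes. Ccnb2 read 4.93, 4.58, 4.45 and 4.20 on WT 1 to WT 4 and 4.43, 4.45, 4.41 and 4.18 on KO 1 to KO 4, with the lowest values on KO 4 and WT 4. Ccna2, the cyclin of S phase and G2, had the largest difference between WT 1 and WT 4 among the mitosis genes, 1.98-fold.

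Plk1, Tpx2 and Hmmr act at the spindle. Plk1, the polo kinase of spindle assembly, read 3.75, 3.53, 3.32 and 3.23 on WT 1 to WT 4 and 3.97, 3.54, 3.39 and 3.39 on KO 1 to KO 4. KO 1 was the highest array and WT 4 the lowest. Tpx2, which activates Aurora A on spindle microtubules, read 1.60, 1.28, 1.14 and 1.01 on WT 1 to WT 4 and 1.21, 1.30, 1.00 and 0.91 on KO 1 to KO 4. WT 1 was highest and KO 4 lowest, and the groups overlapped. Hmmr, a microtubule-binding protein of the spindle, read 2.33, 2.15, 2.19 and 2.10 on WT 1 to WT 4 and 2.40, 2.52, 2.06 and 2.37 on KO 1 to KO 4. Its WT arrays spanned 1.17-fold, the least of the 21 mitosis genes tested, and the highest value lay on KO 2 and the lowest on KO 3. The other 13 mitosis genes tested differed between WT 1 and WT 4 by 1.19-fold (Cdc20, the activator of the anaphase-promoting complex) to 1.98-fold (Ccna2), with WT 1 the higher in each.

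The WT arrays were spread more widely than the ATF3 KO arrays for these genes, the reverse of the pattern over all genes. The SD over 4 arrays was larger in WT than in ATF3 KO for 31 of 33 members (93.9%), against 27.1% of all genes. The median member SD was 0.295 in WT and 0.14 in ATF3 KO (log2 units, n = 4), and that of all genes 0.14 and 0.21. All 12 S phase genes had the larger SD in WT, with a median of 0.43 against 0.13. Hmmr and Plk1 were the 2 members with the larger SD in ATF3 KO.

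S phase genes differed more between WT 1 and WT 4 than mitosis genes did. The difference between WT 1 and WT 4 had a median of 1.03 log2 units (2.04-fold) over the 12 S phase genes and 0.58 (1.49-fold) over the 21 mitosis genes. By promoter letters, the 6 members with E2F letters differed by a median of 1.00 (0.71 to 1.68) and the 23 without by 0.63 (0.095 to 1.18). The 14 members with CHR letters differed by a median of 0.53 (0.23 to 1.17) and the 15 without by 0.93 (0.095 to 1.68). These 2 divisions largely repeat that between S phase and mitosis genes and share the same 2 arrays, and they are given without a test.

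To set the arrays side by side, a score was taken for each gene list on each array, the mean deviation of its genes from their own 8-array means, minus the median deviation of all genes. The score of the 33 members was 0.32, -0.014, -0.10 and -0.415 on WT 1 to WT 4 and 0.088, 0.22, -0.15 and 0.021 on KO 1 to KO 4. Its range was 0.73 log2 units, 1.66-fold, with WT 1 at the top, KO 2 second and WT 4 at the bottom. The share of probes above background put the WT arrays in the same order. It also had KO 2 next after WT 1, but KO 4 rather than WT 4 lowest. The part of this share in the score was not tested. The S phase score ran from 0.42 on WT 1 to -0.56 on WT 4, and the mitosis score from 0.26 to -0.33. Both put the 8 arrays in the same order. The S phase score minus the mitosis score was 0.17, -0.013, 0.011 and -0.22 on WT 1 to WT 4 and -0.037, -0.023, 0.070 and 0.050 on KO 1 to KO 4. By genotype this difference was -0.015 ± 0.16 over the 4 WT arrays and 0.015 ± 0.053 over the 4 ATF3 KO arrays (SD), so the means of the genotypes differed by less than the spread between arrays.

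For genes of the pathway outside the 34 members, WT 1 and WT 4 again stood at the ends of the scores of all 3 lists. For a list of 42 other replication genes, of which 41 were tested, the median difference between WT 1 and WT 4 was 0.82 log2 units (1.77-fold). Clspn, which signals stalled forks, Pole2, a subunit of DNA polymerase epsilon, and Gins1, of the helicase complex, differed most, by 1.39, 1.29 and 1.24. Cdc7, the kinase that fires origins, went the other way at -0.75. The probes of Clspn and Cdc7 were above background on only 6 of the 8 arrays. For 44 other mitosis genes, of which 41 were tested, the median was 0.54 (1.46-fold), with Kif15, a spindle motor, highest at 1.15 and Cep55, a protein of cell abscission, lowest at -0.56. Regulators of G1 and of the RB and E2F network varied least, with a median of 0.23 (1.17-fold) over 30 of 36 genes. Within that list Tfdp2, a dimer partner of E2F, Ccne1, cyclin E1, and Mybl2, which encodes B-MYB, differed by 1.32, 1.23 and 0.93, whereas the D-type cyclins Ccnd1, Ccnd2 and Ccnd3 differed by 0.032, -0.064 and -0.042.

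**Figure D3:**
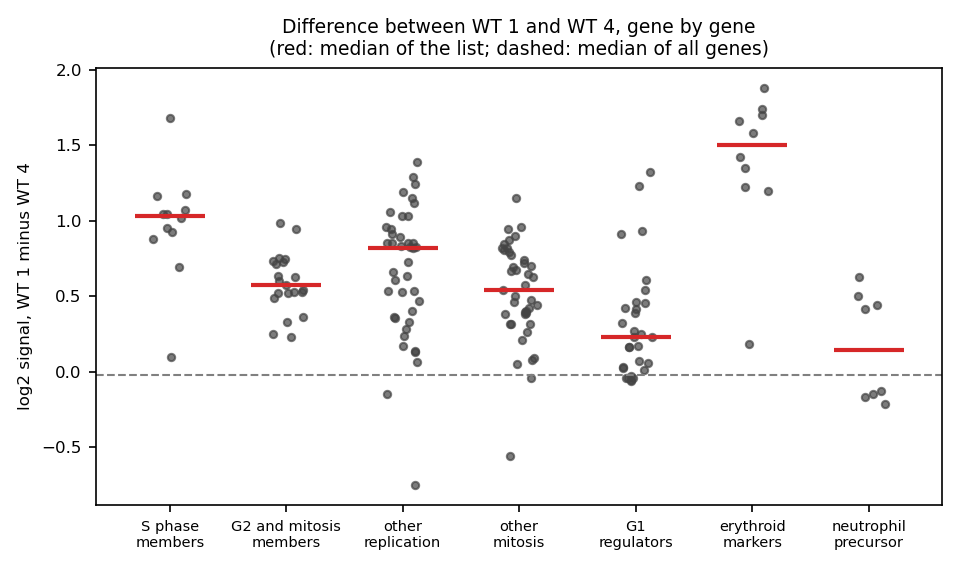
Log2 signal on WT 1 minus that on WT 4 for each gene (points, vertical axis, log2 units) of 7 gene lists, with the median of each list (red) and of all genes (dashed, -0.021). Medians are 1.03 for S phase members, 0.58 for mitosis members, 0.23 for G1 regulators and 1.5 for erythroid markers.

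Markers of red cell precursors shared the highest and lowest arrays of the members. The erythroid score was 0.54, -0.035, -0.064 and -0.85 on WT 1 to WT 4 and 0.046, 0.31, 0.077 and -0.060 on KO 1 to KO 4, so that it shared its 2 highest arrays, WT 1 and KO 2, and its lowest, WT 4, with the members. Between these arrays the order differed. KO 3 came next after KO 2 in the erythroid score, but lay just above WT 4 in the member score (-0.147). Of 11 erythroid markers 10 were measured, all above background on 8 arrays, and Ahsp could not be matched to a named probe. WT 4 was the lowest array for 10 of 10 and WT 1 the highest for 9. The median difference between WT 1 and WT 4 was 1.5 log2 units (2.83-fold). Klf1, the master transcription factor of red cell precursors, read 1.73, 1.05, 0.68 and -0.0054 on WT 1 to WT 4 and 0.99, 1.61, 1.14 and 0.85 on KO 1 to KO 4. WT 1 was highest, KO 2 second and WT 4 lowest. Hba-a1, an alpha globin gene with a near-identical copy that could share its probe, differed by only 0.19 between WT 1 and WT 4. The summed level of the 10 markers, in multiples of the 75th percentile, was 1730 to 2110 on the WT arrays and 1900 to 2460 on the ATF3 KO arrays, most of it from the Hba-a1 probe. Without Hba-a1 the sum of the other 9 was 236 on WT 1 and 83.8 on WT 4, and 135 to 165 on the ATF3 KO arrays. Their part in the order of the cell cycle genes was not tested.

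Markers of early neutrophil precursors did not share that order. The score of 8 genes, all above background on 8 arrays, was 0.17, -0.0094, -0.085 and 0.0029 on WT 1 to WT 4 and -0.019, -0.29, -0.051 and 0.25 on KO 1 to KO 4. The order from the top was KO 4, WT 1 and WT 4, and KO 2, next to WT 1 at the top for the cell cycle genes, was lowest. The primary granule genes Mpo, Elane, Ctsg and Prtn3, made by promyelocytes, differed by 0.50, 0.44, 0.63 and 0.415 between WT 1 and WT 4. For each of them WT 1 was the highest WT array, as for the members, but KO 4 was the highest of all arrays and KO 2 the lowest. Cebpe and Gfi1, transcription factors of granulocyte differentiation, differed by -0.21 and -0.15, and Ms4a3 and Fcnb by -0.13 and -0.17. The summed level of the 8 genes was 411 to 492 in WT and 356 to 455 in ATF3 KO, most of it from Cebpe, and that of the other 7 was 40.3 to 48.5 and 32.4 to 48.1. Secondary granule genes, made by myelocytes and metamyelocytes, had their lowest score on WT 1 (-0.25) and stood at 0.034 on WT 4, with 0.069 to 0.16 on the ATF3 KO arrays. The mature neutrophil score likewise had its lowest value on WT 1 (-0.15), with 0.043 on WT 4. The score of the 3 neutrophil genes S100a8, S100a9 and Itgam was -0.41, -0.367, -0.101 and -0.0644 on WT 1 to WT 4. On KO 1 to KO 4 it was 0.0322, 0.227, 0.131 and 0.52, so every ATF3 KO array exceeded every WT array. With limma 0 of the 3 were called, and 3 had an unadjusted p under 0.05, beside 23.9% of all genes.

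B lineage markers also had their lowest score on WT 4. Their score was -0.047, -0.25, -0.29 and -0.72 on WT 1 to WT 4 and 0.15, 0.41, 0.038 and 0.68 on KO 1 to KO 4, with all 11 markers measured and a summed level of 39.5 to 53.6 in WT and 58.7 to 76.0 in ATF3 KO. WT 4 was the lowest array for 9 of 11. The WT arrays thus ran in the same order in this score as in that of the members, but every ATF3 KO array exceeded every WT array in it. Progenitor markers, with 7 of 8 measured and Hoxa9 not passing the filter, scored -0.16 to -0.084 in WT and -0.013 to 0.33 in ATF3 KO. By gene the list was divided, with 4 higher and 3 lower in ATF3 KO. Gata2, Sox4, Flt3 and Meis1 differed by 0.75, 0.365, 0.27 and 0.013, and Kit, Cd34 and Myb by -0.30, -0.24 and -0.023. Of the 7 markers of T and NK cells, 3 were measured, Cd8a, Ncr1 and Klrb1c did not pass the filter and Trbc1 could not be matched. On WT 4 the other lists went both ways. Megakaryocyte and progenitor markers also had their lowest score there, -0.592 and -0.164. Markers of T and NK cells and of stroma and endothelium had their highest there, 0.283 and 0.289. The part of all these cells in the order of the arrays was not tested.

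**Figure D4:**
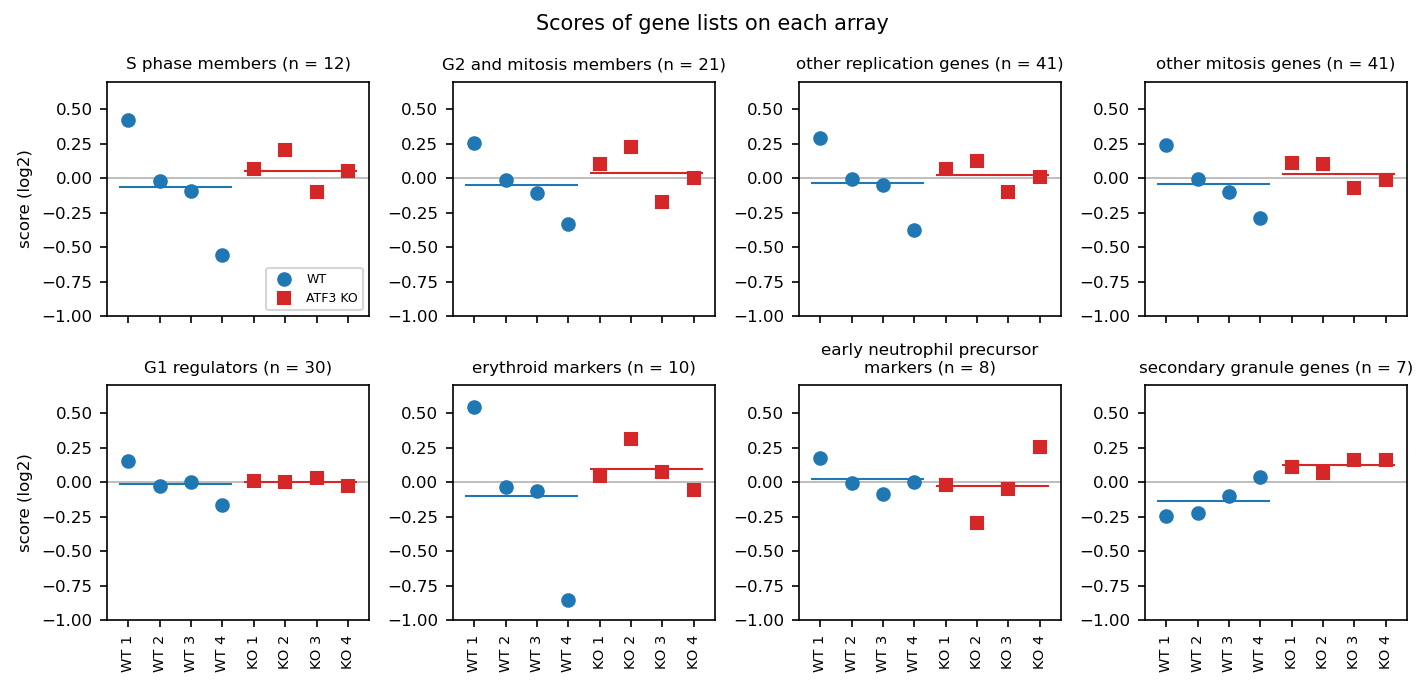
Score of 8 gene lists on each array (vertical axis, log2 units) for 4 WT (blue circles) and 4 ATF3 KO arrays (red squares), with the mean of each genotype as a line. In the member lists and in the erythroid list WT 1 is highest and WT 4 lowest, whereas the early neutrophil precursor list has KO 4 highest and KO 2 lowest.

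No member passed the test of ATF3 KO against WT. With limma, 0 members passed an adjusted p of 0.05 in either direction, and 0 had an unadjusted p under 0.05. For comparison, 95 of all 21251 genes passed the adjusted threshold (0.447%), 5080 the unadjusted one (23.9%), and 3203 had groups that did not overlap (15.1%), a condition met by 0 members. The smallest adjusted p among the members was 0.271, for Top2a. Differences ran from -0.32 to 0.19 log2 units, with 18 members higher in ATF3 KO and 15 lower, a division that moved with the scaling: 6 were higher with normexp correction, 9 with scaling to the median, 29 with quantile normalization, and 30 each with the percentile over detected probes and in the deposited table. Their median was 0.0072, beside a median of -0.11 over all genes. Relative to that median the members were 0.115 higher, with 28 of 33 above it.

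The data left room for moderate differences. The 95% intervals of limma had a median half-width of 0.37 log2 units and together reached from -0.715 to 0.78, so a p above the threshold does not show equal levels. The position of the members relative to all genes moved with several settings. With normexp correction, which also starts from the raw median signal and adds an offset, their relative median was -0.027 with 14 of 33 above the median of all genes, and without WT 4 it was -0.0020 with 16 of 33. Without WT 1 it was 0.23 with 32 of 33. It was 0.028 with no filter on dim probes, 0.068 without KO 2, 0.175 with quantile normalization and 0.199 without KO 3. In each of these 7 settings 0 members were called.

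**Figure D5:**
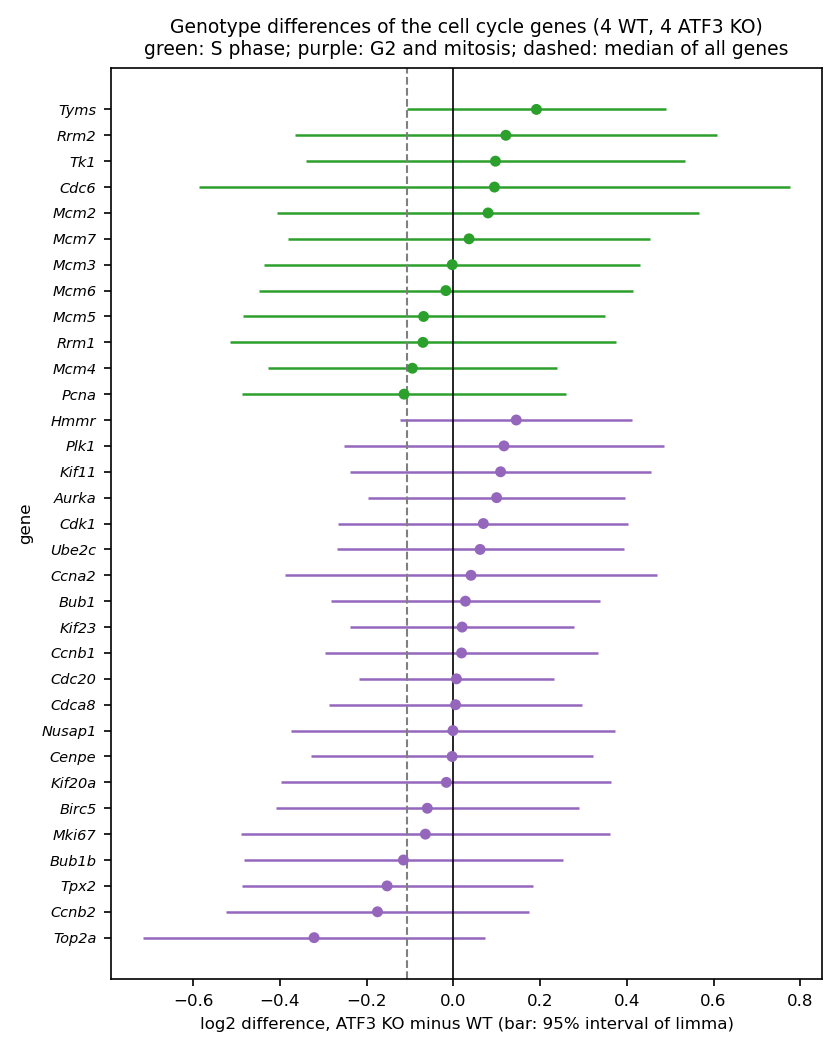
Difference between ATF3 KO and WT for 33 members (points, horizontal axis, log2 units) with the 95% interval of limma (bars, 4 arrays per genotype), S phase genes in green and mitosis genes in purple, and the median of all genes (dashed, -0.11). Every interval includes 0, and the point farthest from 0 is that of Top2a at -0.32.

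Among the S phase genes, the difference of ATF3 KO from WT was largest for Tyms at 0.19 ± 0.13 log2 units (SE, limma adjusted p = 0.360). Its probe was the dimmest of the member probes used, at 29.6 to 57.3 units, and its difference relative to all genes, 0.30, was 0.159 with quantile normalization and 0.0775 in the deposited table. For the helicase subunits it was 0.080 for Mcm2, -0.0026 for Mcm3, -0.095 for Mcm4, -0.069 for Mcm5, -0.017 for Mcm6 and 0.036 for Mcm7, with SE from 0.15 to 0.22. Cdc6 differed by 0.095 with the widest SE of the members, 0.30. Pcna differed by -0.11, Rrm1 by -0.070, Rrm2 by 0.12 and Tk1 by 0.097. The median of the 12 was 0.017, or 0.125 relative to all genes, with 11 of 12 above the median of all genes.

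Among the mitosis genes, 12 were higher and 9 lower in ATF3 KO. Top2a differed by -0.32 ± 0.18 (SE), Ccnb2 by -0.18 ± 0.16 (limma adjusted p = 0.465) and Tpx2 by -0.15 ± 0.15 (adjusted p = 0.506). The largest positive differences were those of Hmmr at 0.15 ± 0.12 (limma adjusted p = 0.433) and Plk1 at 0.12 ± 0.16. Kinesins, the motors of the spindle and midzone, gave 0.11 for Kif11, 0.020 for Kif23, -0.016 for Kif20a and -0.0030 for Cenpe. In the chromosomal passenger complex, which corrects kinetochore attachment, Birc5 differed by -0.060 and Cdca8 by 0.0050. The checkpoint kinases Bub1 and Bub1b differed by 0.028 and -0.12, and Cdc20 and Ube2c, which act in the ubiquitination of mitotic cyclins, by 0.0071 and 0.062. The remaining genes were Mki67 at -0.065, Cdk1 at 0.069, Ccnb1 at 0.019, Ccna2 at 0.041, Aurka at 0.10 and Nusap1, which bundles spindle microtubules, at -0.0010. None of the 21 passed the test, and the genotypes overlapped for each.

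S phase and mitosis genes did not part by genotype. The median difference of the S phase members exceeded that of the mitosis members by 0.0096 log2 units. Without WT 4, the array with the lowest S phase score, it lay 0.11 below (-0.11).

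Of the 33 genes, 6 had several probes that passed the filter, and in 4 of them the ATF3 KO minus WT difference took both signs. Its values ran from -0.093 to 0.095 over the probes of Cdc6, from -0.040 to 0.019 for Ccnb1, from -0.10 to 0.0050 for Cdca8 and from -0.022 to 0.062 for Ube2c, so the sign for these genes depends on the probe. For Birc5, the 3 probes differed between WT 1 and WT 4 by 0.69, 1.06 and 0.75, and for Cdc6 the 2 probes by 1.70 and 1.68.

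In the rest of the pathway, 0 of 41 other replication genes and 0 of 41 other mitosis genes were called by limma, and 2 and 0 had an unadjusted p under 0.05, beside 0.447% of all genes called and 23.9% at the unadjusted threshold. Orc3 and Rfc2, which belong to the origin recognition complex and to the clamp loader, differed by -0.24 ± 0.090 (SE, limma adjusted p = 0.173) and -0.32 ± 0.13 (adjusted p = 0.191), followed by Gins4 at -0.35 ± 0.16 (adjusted p = 0.215). Among the positive differences, those of Uhrf1 and Rpa2 had the smallest p-values, at 0.21 and 0.16. Of the other mitosis genes, Plk4, Cenpa and Cdc25a differed by -0.37, -0.24 and -0.20, and Cep55, Knl1 and Ttk by 0.19, 0.14 and 0.54. Plk4 and Ttk were above background on 5 and 4 of the 8 arrays.

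Among the regulators of G1, the kinases, cyclins and RB and E2F proteins that control entry into S phase, none of 30 was called, while 5 had an unadjusted p under 0.05, all lower in ATF3 KO, beside 14.5% of all genes at that threshold and in that direction. Cdk2, the kinase of cyclins E and A, differed by -0.43 ± 0.13 (SE, limma adjusted p = 0.130). The others were E2f3 at -0.36 (adjusted p = 0.136), Ccnd1 at -0.34 (0.156), E2f1 at -0.30 (0.163) and Rb1 at -0.28 (0.164). Cdk2 read 1.30, 1.32, 0.93 and 1.07 on WT 1 to WT 4 and 0.83, 0.69, 0.85 and 0.52 on KO 1 to KO 4, and E2f3 read 1.63, 1.58, 1.64 and 1.46 on WT 1 to WT 4 and 1.18, 1.12, 1.45 and 1.12 on KO 1 to KO 4. Positive differences were led by Cdkn1c, a CDK inhibitor, Lin52, of the complex that holds B-MYB, and Myc, at 0.22, 0.18 and 0.12.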

How the data were processed

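The authors quantified spot intensity in Agilent Feature Extraction. The file headers give its version as 10.9.1.1, while the submitters' processing notes give 10.10. As deposited, the processed intensity is background-subtracted within each array, with no scaling between arrays. The deposited series table holds log2 values of unstated scale, centring and direction, and it served only as an alternative.

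Control spots and flagged outlier spots (98 to 159 per array) were left out, and the 75th percentile of each array over 55681 probes was subtracted from the log2 processed signal. A probe was kept when above background on at least 4 of 8 arrays, and the probe with the highest mean stood for each gene. Symbols came from RefSeq transcript accessions without versions through GRCm38.p6 (27235 probes), and promoter sequences from RefSeq on the same build. A probe without a symbol was counted under its annotated target name as if that were a gene. The array design names another build. The genotypes were compared in R 4.3.3 with lmFit and eBayes of limma 3.58.1 (genotype only, Benjamini-Hochberg over all 21251 genes, threshold 0.05). The fit was tested on simulated data. Lists were described by counts and medians, with no test over a list.

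The members and lists were chosen with earlier results of these data known. Values on every array are given for Mki67, Top2a, Cdk1, Ccnb1, Plk1, Mcm5, Pcna, Rrm2 and Tyms and for up to 3 further members of each class with the smallest p. From each other cell cycle list, genes called are named, or up to 3 with the smallest p in each direction. The result of 1 gene that this rule names is not reported here, though counts include it. Genes named for their difference between WT 1 and WT 4, and Klf1, Hba-a1 and the granulocyte genes, were chosen after their values were seen. Promoters are shown for up to 3 members of each class whose match lies before the start, in the order of the 9 genes listed first and then of the member list, Mcm2 to Mcm7 first. No 2 arrays held identical values (smallest root mean square difference 0.282 log2 units).

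The alternatives were normexp background correction (offset 50, on the median signal because the files hold no mean signal), other scalings, filters, probe choices and variance models, the replicate block, the deposited table and leaving out each array. The labels name no pairing of the arrays by replicate number. The deviations of same-numbered arrays correlated at 0.19, -0.13, -0.27 and 0.18 across genes. Arrays with different numbers were not compared in this way, so these values do not settle whether the arrays are paired. The number of arrays limits the precision.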

Additional observations from a re-analysis of the deposited data

Results flagged for a closer look

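In 3 of 104 sets of 4 arrays examined (each member and list score within a genotype), 1 array lay far from the other 3 by Dixon's criterion, and chance alone flags about 1 in 20 such sets. Mcm3 read 3.05 on KO 3, while the other ATF3 KO arrays lay between 3.23 and 3.24. Ccnb2 read 4.18 on KO 4, against 4.41 to 4.45 on the other ATF3 KO arrays. The score of the T and NK markers was -0.319 on KO 2, against -0.0191 to -0.0116 on the others, and it rests on 3 measured genes.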

How the results depend on the processing

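Under all 20 alternatives, 0 members passed an adjusted p of 0.05 with limma (smallest 0.144, without KO 3), and at most 1 had an unadjusted p under 0.05. The count of all genes called, 95, was less stable. It was 250 with normexp (62.4% of them higher in ATF3 KO, against 82.1%), 31 with quantile normalization (71.0%), 217 with median scaling, 44 with the percentile over detected probes, 10 without a filter (40.0%), 192 with trend and robust variances (70.8%), 207 with array weights (73.9%), 149 in the deposited table (73.2%) and 72 with the replicate block, in which the smallest member adjusted p was 0.323. Leaving out 1 array gave 5 without WT 1 or WT 3, 32 without WT 2, 54 without WT 4, 17 without KO 2, 28 without KO 4 and 226 without KO 3.

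Across the alternatives, WT 1 had the highest and WT 4 the lowest member score in 19 of 20 each, the exception being the one that leaves that array out. The score range was 0.459 without WT 4 and 0.629 without WT 1, where KO 2 was the highest array. It was 0.727 to 0.736 without any other array. The S phase minus mitosis difference was -0.111 without WT 4 and at most 0.0751 without another array. Differences of 15 members relative to the median of all genes kept their sign in 272 of 300 pairs of member and alternative and changed it in 28, over 8 members, none of them called. With normexp, Mki67 was at -0.0975, Ccnb1 at -0.0829, Mcm5 at -0.10 and Mcm4 at -0.162. With quantile normalization, Pcna was at 0.0739 and Ccnb2 at 0.0125. In the deposited table, Pcna was at 0.115, Ccnb2 at 0.065 and Tpx2 at 0.020. With a filter on all 8 arrays, Pcna was at 0.0032. Without a filter, Mki67 was at -0.0492, Mcm5 at -0.0534 and Mcm4 at -0.0792. Leaving out 1 array moved Mki67 from -0.119 to 0.191, Mcm2 from -0.0185 to 0.364, Mcm4 from -0.093 to 0.133, Mcm5 from -0.106 to 0.197, Pcna from -0.147 to 0.140, Ccnb2 from -0.177 to 0.0631 and Tpx2 from -0.131 to 0.0701. The cause of these changes was not tested. The lowest signal of a member probe tested was 29.6 units, still above background on all 8 arrays.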
